A study of Homo sapiens with 29 samples.

Results

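BEAS-2B cultures given 50 nM N-OH-PhIP were compared with cultures given the solvent DMSO alone, using the 3 arrays titled with that dose and the 3 arrays titled as DMSO controls, 6 of the 29 arrays of the series. BEAS-2B is a human cell line of bronchial epithelium that carries an adenovirus-SV40 hybrid, and the large T antigen of SV40, which immortalises cells, is known to bind p53. N-OH-PhIP is the N-hydroxylated form of PhIP, a heterocyclic amine found in cooked meat and tobacco smoke, and it forms bulky DNA adducts after activation. Every culture, treated or control, held 1% DMSO for 24 h in serum-free medium, and the labels describe triplicate cultures for each dose. The other 8 doses of the series were 0.1, 0.5, 1, 5, 10, 100, 500 and 1000 nM, and the series asks at which dose the transcriptome first responds. The 10 nM and 100 nM groups, with 3 arrays each, serve here as the neighbouring doses.

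A bulky adduct blocks RNA polymerase as well as DNA polymerase, and blocked polymerases and single-stranded DNA activate the kinases that stabilise p53. The p53 protein then switches on genes that halt the cell cycle, repair DNA, change metabolism, kill the cell and, through MDM2, remove p53 again. Because a long gene offers more template to damage than a short one, long genes, several of which lie at common fragile sites, are known to lose transcription first when lesions block elongation.

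The array measures each RNA with probe sets, and the values are normalized intensities. All changes below are differences of log2(intensity + 16), 50 nM minus DMSO unless another pair is named, with the standard error of the limma fit, and a probe set passed when its Benjamini-Hochberg adjusted p was under 0.05. Of 27307 tested probe sets, 72 passed at 50 nM against DMSO, which is 0.264% of those tested. Of these, 33 were higher at 50 nM (0.121%) and 39 were lower (0.143%), and 2415 had an unadjusted p under 0.05 (8.84%). In the same fit, 163, 12, 213, 302 and 66 probe sets passed at 0.1, 0.5, 1, 5 and 10 nM against DMSO. Their shares were 0.597%, 0.0439%, 0.78%, 1.11% and 0.242%. The 0.5 nM group had only 2 arrays, so its count cannot be set beside the others directly. At 100 nM 792 passed (2.9%). The count at 50 nM was thus lower than at 0.1, 1 and 5 nM, and counts did not rise steadily with dose. The 72 probe sets stand for 26 genes that rose and 25 that fell, beside 3 probe sets that name several genes and 7 that are unnamed here. Changes were small: 24 of the 72 reached 1.5-fold, 6 of them higher and 18 lower, and 2 reached 2-fold. In 6 of the 51 genes (ERN2, NADK2, NSD1, TIAM2, TMEM263 and WWOX) another tested probe set lay on the other side of zero. The mean was under the level minimum of 37.4, the mean over all arrays that a probe set had to reach to be tested, at 50 nM for 4 of the lower probe sets (both MACROD2 ones, that of DCAF4L1 and an unnamed one) and in DMSO for 1 higher one, of ERN2. These 5 entered the test only through the groups where they are brighter, and the size of their change is uncertain. All 72 had groups that did not overlap, as did 11.4% of tested probe sets in the higher direction and 8.19% in the lower. The count depended on single arrays: it was 28, 14 and 14 without 50 nM replicate 1, 2 or 3, and 31, 8 and 68 without DMSO replicate 1, 2 or 3. Probe sets that passed in every one of these 6 fits numbered 8, and they measure MDM2, FAS, TIGAR and RPS27L (2 probe sets) among those that rose, and MACROD2, DHRS2 and LINGO2 among those that fell.

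Of the 26 genes that rose, 17 were on lists of p53 targets. Of 61 tested genes on 4 lists of p53 targets, 14 rose and 0 fell when each gene was represented by its probe set of highest mean, against a background of 0.164% of all tested genes higher and 0.123% lower. Counting any tested probe set, 17 of the 61 rose, against 0.214% of all tested genes. The median change over the 61 genes was 0.19 and 54 of them lay above zero, against a median of 0.03 and 7725 of 12174 genes above zero over all tested genes. These lists and the comparison were chosen with earlier results of these arrays known. The number of the 61 that rose was 8, 5 and 3 without 50 nM replicate 1, 2 or 3, and 5, 3 and 13 without DMSO replicate 1, 2 or 3, while their median stayed between 0.18 and 0.22. In pairs that use no DMSO array, the median of the 61 was 0.06 for 50 minus 10 nM and 0.20 for 100 minus 10 nM. Over all tested genes those medians were 0.00 and -0.01.

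**Figure D1:**
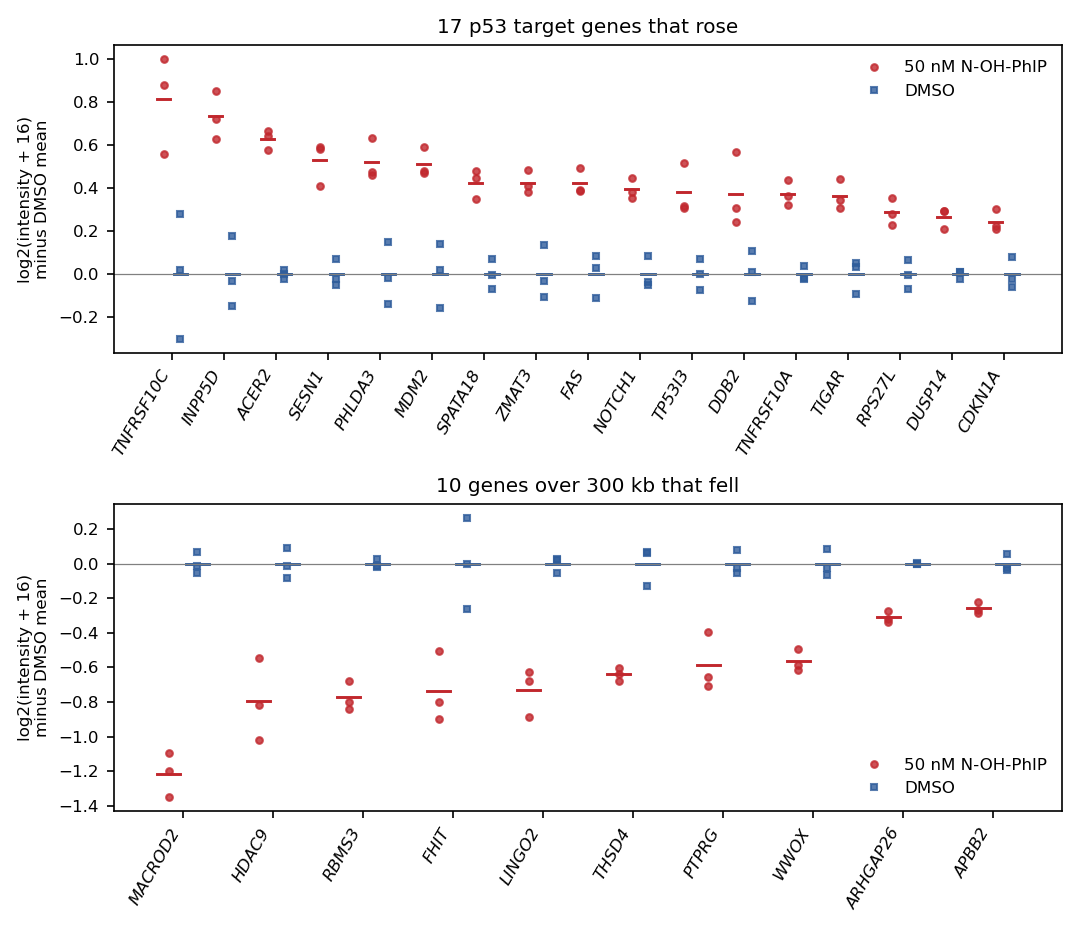
Each point is 1 array, drawn as log2(intensity + 16) minus the mean of the DMSO arrays, with 50 nM N-OH-PhIP (circles) left of DMSO (squares) for each gene and short lines at group means. The upper panel holds the 17 p53 target genes that rose and the lower panel the 10 genes over 300 kb that fell, each by its called probe set of largest change, and the groups do not overlap for any of them.

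Feedback, arrest and repair targets made up the largest list. Of 24 tested genes 6 rose, and 8 rose when any probe set was counted. MDM2, the ubiquitin ligase that degrades p53, had intensities of 703, 706 and 765 in the 50 nM cultures on its probe set of largest change, against 509, 449 and 555 in the DMSO cultures. That is a change of 0.51 ± 0.07 (adjusted p = 0.00098). All 9 tested MDM2 probe sets lay above zero, from 0.13 to 0.51, and 3 of them passed.

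CDKN1A, the p21 inhibitor of cyclin-dependent kinases, read 5437, 5385 and 5758 at 50 nM and 4588, 4479 and 4920 in DMSO. Every treated culture lay above every control, but the rise was only 0.24 ± 0.05 (adjusted p = 0.042). RPS27L, a ribosomal protein paralogue that binds MDM2, read 5736, 5526 and 6032 at 50 nM and 4506, 4715 and 4941 in DMSO. Its rise of 0.29 ± 0.04 (adjusted p = 0.00061) was small but steady, and 2 of its 3 tested probe sets passed.

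Other members of the list rose further. PHLDA3, an inhibitor of AKT, rose by 0.52 ± 0.11 on 1 of its 2 tested probe sets. SPATA18, which acts in mitochondrial quality control, rose by 0.43 ± 0.09, also on 1 of 2. ZMAT3, an RNA-binding zinc finger protein, rose by 0.42 ± 0.07 on 1 of its 4 tested probe sets. The arrays of 0.1, 0.5 and 1 nM were already higher than DMSO for SPATA18, at 0.36 (adjusted p = 0.02), and for ZMAT3, at 0.30 (adjusted p = 0.011). DDB2, which recognises lesions for nucleotide excision repair, rose by 0.37 ± 0.07 and was the only gene of 23 tested repair genes of that pathway to pass. XPC, its partner in damage recognition, changed by 0.23 ± 0.09 (adjusted p = 0.45). AEN, a p53-induced nuclease, stood just outside the threshold at 0.31 ± 0.07 (adjusted p = 0.054), and RRM2B, a p53-induced ribonucleotide reductase subunit, at 0.33 ± 0.08 (adjusted p = 0.092). GADD45A, PLK2 and CCNG2, which are also known p53 targets, had values of -0.06, -0.07 and -0.21 and did not pass.

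The metabolic targets held 4 rises among 10 tested genes. ACER2, an alkaline ceramidase of the Golgi, read 199, 190 and 203 at 50 nM and 122, 120 and 124 in DMSO, a rise of 0.63 ± 0.11 (adjusted p = 0.011). The replicates of both groups lay close together. SESN1, a sestrin that restrains mTOR signalling, read 342, 387 and 390 at 50 nM and 249, 244 and 267 in DMSO, a rise of 0.53 ± 0.09 (adjusted p = 0.011). TIGAR, which lowers glycolytic flux, read 1451, 1412 and 1552 at 50 nM and 1069, 1168 and 1182 in DMSO, a rise of 0.36 ± 0.05 (adjusted p = 0.00086). TP53I3, a quinone oxidoreductase, rose by 0.38 ± 0.08 (adjusted p = 0.042). SESN2, SCO2 and FUCA1 had values of 0.23, 0.02 and 0.00 and did not pass.

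Among death genes and TRAIL receptors, FAS, TNFRSF10A and TNFRSF10C rose. FAS, the receptor of FAS ligand, read 1379, 1381 and 1302 at 50 nM and 989, 987 and 1071 in DMSO. The rise of 0.41 ± 0.05 (adjusted p = 0.00011) had the smallest adjusted p of any probe set that rose, and all 5 tested FAS probe sets lay between 0.34 and 0.42. TNFRSF10A, a death receptor for TRAIL, rose by 0.37 ± 0.06 on 1 of its 3 tested probe sets. TNFRSF10C, a decoy TRAIL receptor without a death domain, was dim and spread more, and 1 of its 4 tested probe sets passed. That probe set, of the largest change, had 68.9, 89.9 and 98.9 at 50 nM against 30.8, 42.4 and 53.8 in DMSO, a rise of 0.81 ± 0.15 (adjusted p = 0.012). The other 3 lay between 0.34 and 0.69. BAX, PMAIP1 and APAF1, which act at the mitochondrion, had values of 0.18, 0.09 and 0.08 and did not pass. By its probe set of highest mean, FAS alone rose among the 11 tested death targets. Counting any tested probe set, 2 of the 11 rose, against 0.214% of all tested genes. Not every gene named in this paragraph is on that list.

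Of 16 tested secreted and signalling targets, 3 rose. INPP5D, the inositol phosphatase SHIP, rose by 0.73 ± 0.13 on 1 of its 2 tested probe sets. The receptor NOTCH1 rose by 0.39 ± 0.07, also on 1 of 2, and DUSP14, a dual-specificity phosphatase, by 0.26 ± 0.06. GDF15, a secreted stress cytokine, read 1686, 1683 and 1675 at 50 nM and 1479, 1448 and 1669 in DMSO. The groups did not overlap, but the change of 0.14 ± 0.07 did not pass (adjusted p = 0.59). TRIM22, an interferon- and p53-inducible ubiquitin ligase, stood at 0.53 ± 0.12 (adjusted p = 0.062).

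The probe set annotated to MIR34A, the gene of a microRNA that p53 switches on, rose by 0.78 ± 0.17 (adjusted p = 0.041). It read 440, 453 and 566 at 50 nM and 220, 305 and 308 in DMSO. The array reads RNA from the gene and not the mature microRNA, whose level was not measured. The mature products of the gene are shown because the seed, in capitals (bases 2 to 8), is what pairs with targets such as messages of cell cycle genes. They are RefSeq sequences on the minus strand of GRCh38.p14, at chr1:9151735-9151756 for the 5p arm and chr1:9151693-9151714 for the 3p arm.
hsa-miR-34a-5p: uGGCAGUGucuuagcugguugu
hsa-miR-34a-3p: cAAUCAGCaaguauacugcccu

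A p53 response element, matched by name, was searched on both strands as a pair of half-sites with no spacer. At most 2 mismatches in all were allowed, and the core C and G of each half-site had to match. It was found in 74 of 27305 RefSeq promoters (0.271%), each running from 250 bases before to 50 bases after the start. None of the 20 matched promoters of genes that rose held it, nor any of the 22 of genes that fell. With 0.271% of all promoters holding it, a count of 0 among so few is near that share and shows nothing particular to these genes. Elements outside this window, or with a spacer, were not searched. The element was found in 2 of the 49 promoters of tested p53 targets, AEN and GPX1, neither of which passed. GPX1, an antioxidant enzyme, stood at 0.02 ± 0.08 (adjusted p = 0.97). The matches are shown, in capitals with 20 bases on each side, because a like element stands in front of a gene near the threshold and of one with almost no change. The AEN match starts 34 bases before the gene's start, at chr15:88621286-88621345 on the plus strand with its flanks, and the GPX1 match 187 bases before, at chr3:49358501-49358560 on the minus strand, both in GRCh38.p14.
AEN promoter: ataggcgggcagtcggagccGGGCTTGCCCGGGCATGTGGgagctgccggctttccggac
GPX1 promoter: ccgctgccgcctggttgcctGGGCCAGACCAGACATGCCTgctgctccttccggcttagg

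Several genes outside the lists rose as well. The antisense RNA UNC5B-AS1 had the largest rise, 0.90 ± 0.16 (adjusted p = 0.012), with 83.4, 83.7 and 122 at 50 nM against 39.8, 34.8 and 58.3 in DMSO. NSD1, a histone H3 lysine methyltransferase, rose by 0.61 ± 0.11 on 1 of its 3 tested probe sets, while another stood at -0.04, and the arrays of 0.1, 0.5 and 1 nM were already higher than DMSO on the first, at 0.49 (adjusted p = 0.0095). ERN2, an endoplasmic reticulum stress sensor of mucosal epithelia, rose by 0.44 ± 0.09 on 1 of its 2 tested probe sets, which averaged 48.9 at 50 nM and 32.1 in DMSO, where it was under the level minimum. The other stood at -0.05 (adjusted p = 0.95). FAXDC2, which carries a fatty acid hydroxylase domain, rose by 0.44 ± 0.09 on 1 of its 3 tested probe sets. HPCAL4, a calcium sensor, rose by 0.39 ± 0.08. EPPK1, the cytolinker epiplakin, rose by 0.38 ± 0.08 on 1 of its 3 tested probe sets. TMEFF2, a transmembrane protein with follistatin-like domains, rose by 0.15 ± 0.03. TMEM263 rose by 0.20 ± 0.04 on 1 of its 3 tested probe sets, while the others stood at -0.04 and -0.17.

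The genes that fell included many of great length. MACROD2, which removes ADP-ribose from proteins and spans 2058 kb in RefSeq, had the smallest adjusted p of all tested probe sets. Its probe set of largest change read 37.2, 33.5 and 28.6 at 50 nM and 103, 96.6 and 93.5 in DMSO. The fall was 1.22 on the log2 scale (SE 0.11, adjusted p = 3.9e-07) and 1.54 with an offset of 1, because the 50 nM values lie under the level minimum, where the offset sets much of the size. A further MACROD2 probe set, also under that minimum at 50 nM, fell by 0.66, and the one of highest mean stood at -0.14 ± 0.13 (adjusted p = 0.81), so the gene's probe sets did not move alike. Where in the gene each probe set lies was not used here.

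FHIT, a diadenosine polyphosphate hydrolase at the fragile site FRA3B, spans 1504 kb. It read 82.4, 75.9 and 105 at 50 nM and 127, 155 and 190 in DMSO, a fall of 0.74 (SE 0.13, adjusted p = 0.0094). LINGO2, a leucine-rich repeat membrane protein of 1276 kb, read 111, 131 and 136 at 50 nM and 210, 223 and 224 in DMSO, a fall of 0.73 (SE 0.12, adjusted p = 0.0041). WWOX, an oxidoreductase at the fragile site FRA16D with 1113 kb, read 105, 95.5 and 97.7 at 50 nM and 147, 165 and 152 in DMSO on the probe set that passed. That fall was 0.56 (SE 0.11, adjusted p = 0.016), while the other 3 tested WWOX probe sets ranged from -0.34 to 0.09. In all 4 genes the lowest DMSO culture was above the highest 50 nM culture on the probe sets that passed.

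Of 25 tested genes on a list of very long and fragile-site genes, 3 fell and 0 rose by the probe set of highest mean, with a median of -0.20 and 23 below zero. Counting any tested probe set, 6 fell, against 0.205% of all tested genes. Besides FHIT, LINGO2, WWOX and MACROD2, these were THSD4, an extracellular matrix protein, and PTPRG, a receptor tyrosine phosphatase. THSD4 fell by 0.64, and PTPRG fell by 0.59 on 1 of its 2 tested probe sets. The count of 3 was 1, 1 and 2 without 50 nM replicate 1, 2 or 3, and 2, 1 and 3 without DMSO replicate 1, 2 or 3. Outside that list, RBMS3, an RNA-binding protein, fell by 0.77 and 0.55 on its pair of tested probe sets, and HDAC9, a histone deacetylase, by 0.79 on 1 of 2. On the first RBMS3 probe set the arrays of 0.1, 0.5 and 1 nM were already lower than DMSO, at -0.55 (adjusted p = 0.046). The 50 nM arrays differed from those low-dose arrays by -0.22 on it (adjusted p = 0.7) and by -0.40 on the second probe set (adjusted p = 0.033). ARHGAP26, a GTPase-activating protein, fell by 0.31 on 1 of its 3 tested probe sets. APBB2, an adaptor of the amyloid precursor protein, fell by 0.26 on 1 of 5. Their other probe sets lay below zero and did not pass. On the probe sets that passed, the arrays of 0.1, 0.5 and 1 nM were already lower than DMSO, at -0.30 and -0.18. PARD3B, a polarity protein of 1075 kb, missed the threshold at -0.55 ± 0.13 (adjusted p = 0.07).

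Gene length was then set against the change over all tested genes, by RefSeq length. The 25 genes that fell had a median length of 262 kb, and 10 of them exceeded 300 kb, against a median of 28.9 kb and 371 of 12164 genes over 300 kb (3.05%) among all tested genes with a length. The 26 genes that rose had a median length of 28.5 kb and none exceeded 300 kb. With 3.05% of tested genes over 300 kb, none among 26 is near that share and shows nothing particular to them. These counts take a gene as called when any of its probe sets passed, which favours genes with many probe sets. By the probe set of highest mean, 5 genes over 300 kb fell, and this was 2, 1 and 2 without 50 nM replicate 1, 2 or 3, and 3, 1 and 4 without DMSO replicate 1, 2 or 3.

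Over all tested genes, the median change was lower in the longer classes. It was 0.05 for genes under 30 kb, 0.02 for 30 to 100 kb, -0.01 for 100 to 300 kb and -0.11 for 300 to 1000 kb. In the last of these classes 84.7% of 352 genes lay below zero, against 27.8% of 6240 genes under 30 kb. The class over 1000 kb held only 19 genes, with a median of -0.11 and 68.4% below zero. Of these, 4 (FHIT, LINGO2, WWOX and MACROD2) fell when any probe set was counted. By the probe set of highest mean, on which the median rests, WWOX at -0.34 (adjusted p = 0.3) and MACROD2 at -0.14 did not pass. DMD, CNTNAP2 and ROBO1, also over 1000 kb, had values of -0.11, -0.11 and -0.08 and did not pass, and KCNIP4 stood at 0.27 (adjusted p = 0.36). Between 50 nM and 10 nM, a pair that uses no DMSO array, the median was 0.00 under 30 kb and -0.05 for 300 to 1000 kb. The median over the 371 genes longer than 300 kb was -0.11 and lay between -0.14 and -0.09 when each of the 6 arrays was left out in turn. No set test was run on these classes. Genes within a class are not independent replicates.

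**Figure D2:**
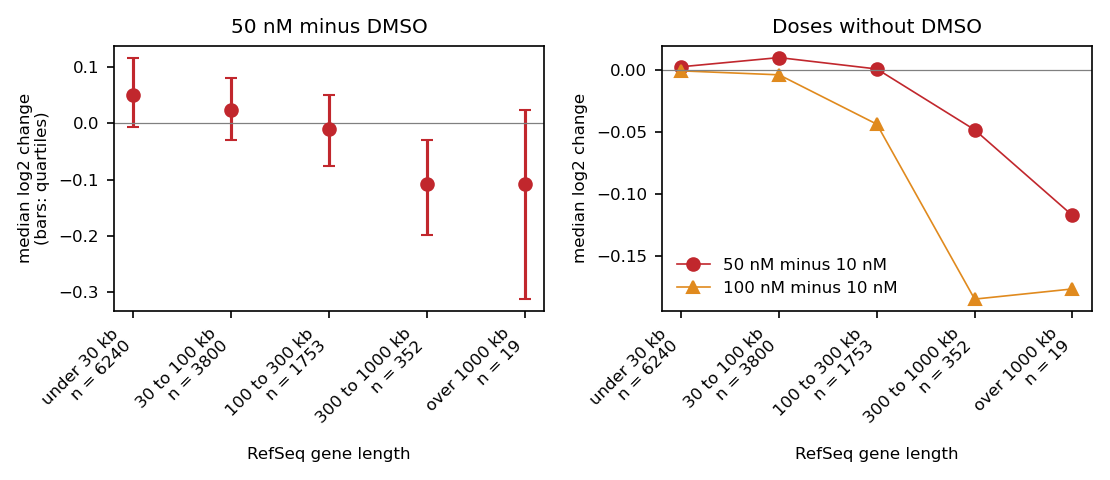
Left, the median log2 change at 50 nM minus DMSO for tested genes in 5 classes of RefSeq gene length, with bars from the lower to the upper quartile over genes. Right, the medians for 50 nM minus 10 nM (circles) and 100 nM minus 10 nM (triangles), which use no DMSO array: they lie near 0.00 under 30 kb and at -0.05 and -0.18 for 300 to 1000 kb.

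Other genes that fell were shorter. DHRS2, a short-chain dehydrogenase of mitochondria and nucleus, had the largest fall, 1.25 (SE 0.18, adjusted p = 0.00086). It read 84.4, 79.6 and 86.0 at 50 nM and 156, 324 and 211 in DMSO, so the control cultures spread widely and the treated ones did not. The second DHRS2 probe set fell by 0.80. PTPRO, a receptor tyrosine phosphatase, read 3995, 3635 and 3498 at 50 nM and 6253, 6143 and 5654 in DMSO, a fall of 0.70 (SE 0.15, adjusted p = 0.043). ITGBL1, an integrin beta-like matrix protein, fell by 0.56 and TIAM2, an activator of Rac, by 0.47, each on 1 of 3 tested probe sets. DCAF4L1 averaged 23.9 at 50 nM, under the level minimum, and 49.2 in DMSO, a fall of 0.70 that was 0.99 with an offset of 1. TIAM2 had another probe set at 0.28, so its probe sets went opposite ways.

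A single gene passed in each cell cycle list. AURKA, a mitotic kinase, fell by 0.22 and 0.17 on 2 of its 3 tested probe sets. It was the only 1 of 36 tested G2/M and mitosis genes to pass, where 0.123% of all tested genes were lower. Of the 36, 33 lay below zero, with a median of -0.10, where 4449 of 12174 tested genes lay below zero. In pairs that use no DMSO array, the median of the 36 was -0.03 (50 minus 10 nM) and -0.01 (100 minus 10 nM). RRM2, the S-phase ribonucleotide reductase subunit, fell by 0.15 (SE 0.03, adjusted p = 0.016) on 1 of its 2 tested probe sets. It was the only 1 of 36 replication and G1/S genes to pass. It read 4311, 4067 and 4203 at 50 nM and 4546, 4668 and 4795 in DMSO. RPL22L1, a ribosomal protein paralogue that affects splicing, fell by 0.35, and CDK6, a G1 kinase, by 0.35 on 1 of its 4 tested probe sets. The mitochondrial NAD kinase NADK2 fell by 0.28 on 1 of its 3 tested probe sets, with another at 0.03. SLFN5, an interferon-induced Schlafen protein, fell by 0.51 and 0.43 on 2 of its 6 tested probe sets.

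JUN, TNFAIP3, KLF6 and HERPUD1, of 3 stress-related lists, had lower means than DMSO at every dose from 0.1 to 100 nM. The lists they belong to had medians near that of all tested genes (0.03). The median was 0.00 over 23 AP-1 and immediate early genes, with 13 above zero, 0.06 over 20 cytokine and NF-kB genes, with 13 above zero, and 0.02 over 21 endoplasmic reticulum chaperone and degradation genes, with 12 above zero. JUN, an AP-1 subunit, fell by 0.42 and 0.37 on 2 of its 4 tested probe sets. On the first it read 903, 801 and 724 at 50 nM and 1051, 1107 and 1100 in DMSO. Its mean was 1086 in DMSO, then 657, 726 and 689 for the doses 0.1, 0.5 and 1 nM. It was 612, 930 and 810 for 5, 10 and 50 nM, and 714, 959 and 1315 for 100, 500 and 1000 nM. TNFAIP3, the A20 inhibitor of NF-kB, fell by 0.65 on 1 of its 2 tested probe sets. That one read 149, 150 and 141 at 50 nM and 190, 315 and 227 in DMSO. But it averaged 119, 133 and 126 at 0.1, 0.5 and 1 nM. KLF6, a zinc finger transcription factor, fell by 0.43 on 1 of its 4 tested probe sets. HERPUD1, of endoplasmic reticulum degradation, fell by 0.26 on 1 of 2.

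Many of the 72 changes were smaller when the arrays of 0.1, 0.5 and 1 nM took the place of DMSO. Because the 72 were chosen by their distance from these DMSO arrays, some shrinkage against any other reference comes from that choice alone. The median over the 33 higher probe sets was 0.26 against the low doses and 0.41 against DMSO, and over the 39 lower ones -0.20 and -0.56. Of the 33, 10 passed there, among them ACER2, PHLDA3, MDM2, FAS, NOTCH1, TP53I3, TNFRSF10A and TIGAR, and of the 39, 14 passed, among them MACROD2, FHIT, LINGO2, WWOX, HDAC9, DHRS2, PTPRO, RRM2 and AURKA. A further 13 higher and 14 lower probe sets kept the sign but less than 50% of the size. For those that passed against the low doses, no share of all tested probe sets by direction is given here. Their counts therefore have no background beside them.

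The low-dose arrays themselves differed from DMSO, in the direction seen at 50 nM, for 7 of the 33 and 16 of the 39. Both comparisons use the same DMSO arrays, so agreement in direction is partly built in. The share of all tested probe sets was not counted for the pooled low doses. Taken singly, 0.597%, 0.0439% and 0.78% passed in either direction at 0.1, 0.5 and 1 nM against DMSO. The genes among the 7 of the 33 were NSD1, SPATA18, ZMAT3, RPS27L and TMEM263, beside a probe set that names PURB with a microRNA gene. SPATA18, ZMAT3 and NSD1 were 0.06, 0.12 and 0.13 higher at 50 nM than at the low doses and did not pass. ARHGAP26 at -0.01, SLFN5 at -0.03 and -0.12, CDK6 at -0.06 and a THSD4 probe set at -0.09 did not pass either, while their low-dose arrays were lower than DMSO. JUN, TNFAIP3, KLF6 and HERPUD1 were at 0.22, 0.21, 0.11 and 0.08 against the low doses, in the opposite direction, and did not pass. The low-dose arrays were lower than DMSO for JUN at -0.64 (adjusted p = 2.6e-05) and for TNFAIP3 at -0.86 (adjusted p = 0.00022). In all, 7 of the 39 lower probe sets changed direction, the others being a second JUN probe set and those annotated to NR1D1 with THRA and to HSPA8 with snoRNA genes. The actin and GAPDH control ratio of 3′ to 5′ signal, a measure of RNA or amplification quality, was 1.16 ± 0.04 at 50 nM and 1.18 ± 0.04 in DMSO on the log2 scale (SD, n = 3 each), against 1.23 ± 0.05 at 0.1 nM (SD, n = 3), 1.25 ± 0.08 at 0.5 nM (SD, n = 2) and 1.35 ± 0.06 at 1 nM (SD, n = 3). With that ratio as a covariate, all 54 named genes kept their direction and their side of the threshold at 50 nM against DMSO. Its part in the differences between low doses and DMSO was not tested.

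**Figure D3:**
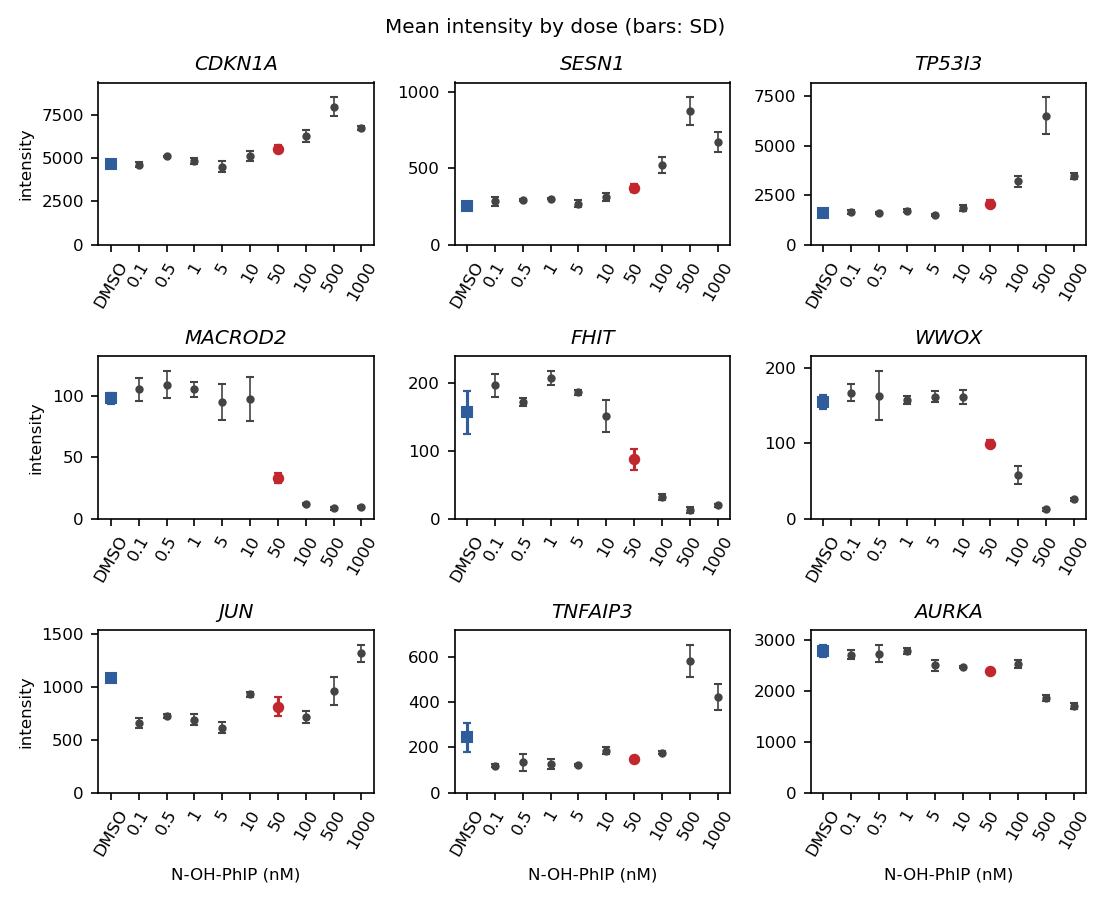
Mean intensity (points) and SD (bars) of 9 genes in DMSO (square) and at rising doses of N-OH-PhIP, with 50 nM as the large circle, for the called probe set of largest change of each gene. CDKN1A, SESN1 and TP53I3 have higher means at 100 nM than at 50 nM, MACROD2, FHIT and WWOX have lower ones, and JUN and TNFAIP3 have lower means at 0.1 nM than in DMSO.

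Against the next lower dose, 7 probe sets passed at 50 nM against 10 nM (0.0256% of those tested), 1 of them higher (0.00366%) and 6 lower (0.022%). RPS27L was higher, by 0.21 ± 0.04 (adjusted p = 0.047). MACROD2 was lower by a log2 change of -1.20 ± 0.11 (adjusted p = 5.3e-07), HDAC9 by -0.77, FHIT by -0.70, WWOX by -0.61, RPL22L1 by -0.44 and RRM2 by -0.20. MACROD2 averaged 97.7 in DMSO and 97.2, 33.1 and 11.9 in the 10, 50 and 100 nM cultures. FHIT averaged 157 in DMSO and 152, 87.8 and 32.2 in the 10, 50 and 100 nM cultures. FAS averaged 1016 in DMSO and 1204, 1354 and 1699 in the 10, 50 and 100 nM cultures, and its change between 50 nM and 10 nM was 0.17 (adjusted p = 0.72). This count rests on few probe sets, and it was 1 to 3 when any single array of the 6 was left out. By the probe set of highest mean, 0 of the 61 p53 targets passed there, against 0% of all tested genes higher and 0.0246% lower.

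Against the next higher dose, 26 probe sets passed at 50 nM against 100 nM (0.0952%), 12 higher at 50 nM (0.0439%) and 14 lower (0.0513%). FHIT was 1.10 ± 0.13 higher at 50 nM (adjusted p = 0.00012), PARD3B 0.88, MACROD2 0.81, LINGO2 0.73 and WWOX 0.66, and the long genes IMMP2L, SLC39A11, NALCN and NEBL passed in the same direction. The 100 nM means of FHIT and MACROD2, 32.2 and 11.9, and the 50 nM mean of MACROD2 are under the level minimum, so the sizes of their differences are uncertain. The p53 targets TP53I3, SESN1 and FAS were lower at 50 nM than at 100 nM, at -0.62 ± 0.08 (adjusted p = 0.00054), -0.47 ± 0.09 (adjusted p = 0.046) and -0.32 ± 0.05 (adjusted p = 0.0024), as was an MDM2 probe set at -0.68. By contrast ZMAT3, DUSP14 and ERN2 differed by -0.09, -0.02 and 0.10 between 50 nM and 100 nM and did not pass. The count of 26 was between 7 and 24 when any single array of those 6 was left out.

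The 72 probe sets were then read at 100 nM against 10 nM, 6 arrays that form no part of the difference between 50 nM and DMSO. They did enter the fit's estimate of spread and the level filter that chose the 72. There 387 probe sets passed (1.42%), 178 higher (0.652%) and 209 lower (0.765%). Of the 33 that were higher at 50 nM against DMSO, 23 passed in the same direction, and of the 39 that were lower, 21 did, with 0 in the opposite direction. In a fit of those 6 arrays alone, 15 of the 33 and 19 of the 39 passed in the same direction and 0 in the opposite one, against 0.37% of tested probe sets higher and 0.406% lower. Their medians in that pair were 0.33 and -0.38. Among those that passed were MIR34A at 1.08, ACER2 at 0.84, TP53I3 at 0.78, MACROD2 at -2.01, FHIT at -1.80 and DHRS2 at -1.08. NSD1, ERN2, HPCAL4, AURKA and TNFAIP3 had values of -0.12, 0.01, 0.00, 0.03 and -0.06 and did not pass.

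**Figure D4:**
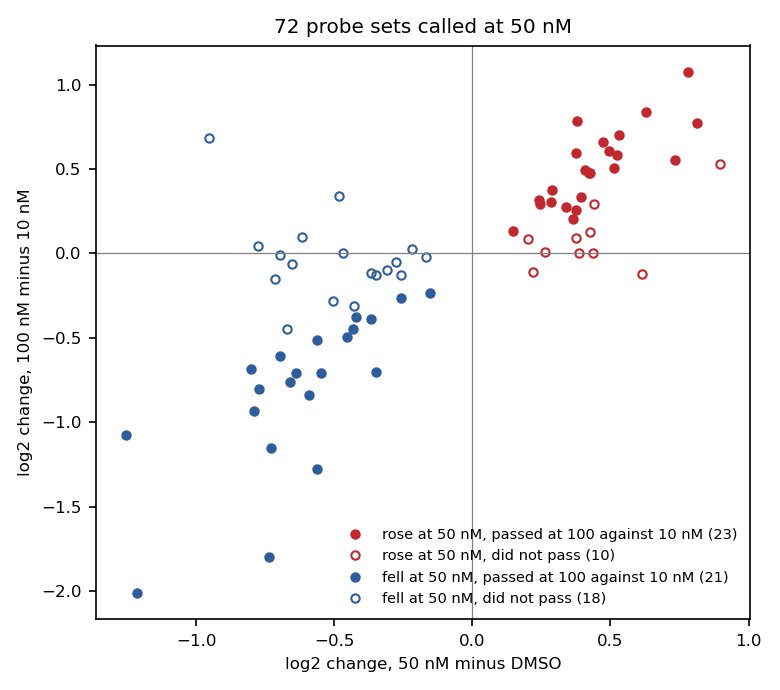
Each point is 1 of the 72 probe sets that passed at 50 nM against DMSO, with that log2 change on the horizontal axis and the change between 100 nM and 10 nM on the vertical axis. Filled points passed in the second pair, 23 of those that rose and 21 of those that fell, and all filled points lie on the same side of zero on both axes.

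The other lists held few genes that passed, as did all tested genes. Of 40 gene lists, 29 held 0 genes that passed, among them the base excision, Fanconi and translesion repair lists, the antioxidant targets of NRF2, interferon-stimulated genes, metallothioneins and cytosolic ribosomal proteins. With 0.164% of all tested genes higher and 0.123% lower, a count of 0 in lists of this size is near the background and shows nothing particular to them. The same holds for the next list. Of 7 tested targets and partners of the aryl hydrocarbon receptor, which senses planar aromatic compounds, 0 passed. CYP1B1, a P450 that can activate PhIP, read 170, 165 and 183 at 50 nM and 172, 139 and 192 in DMSO, so the groups overlapped. CYP1A1 was under the level minimum, with 22.0 ± 1.5 at 50 nM and 28.0 ± 6.68 in DMSO (SD, n = 3 each). NQO1 and HMOX1, which respond to oxidative stress, had values of -0.03 and 0.05 and did not pass.

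The arrays carried the bronchial epithelial markers of their label, beside some members of other marker lists. Of 16 listed bronchial epithelial markers, 13 were analysed and all lay above the level minimum, among them EPCAM, CDH1 and KRT18, and their summed intensities ran from 35170 to 36886 at 50 nM and from 35193 to 36570 in DMSO. Fibroblast markers summed to 2488 to 2505 at 50 nM and 2272 to 2307 in DMSO over 16 genes, 4 of them above the level minimum, and leukocyte markers to 833 to 889 at 50 nM and 770 to 813 in DMSO over 17 genes, 4 above it. The markers PTPRC and COL3A1 averaged 8.93 and 12.5 at 50 nM and 9.24 and 12.0 in DMSO, under the minimum of 37.4. The fibroblast markers above it were COL1A1 (677 at 50 nM and 601 in DMSO), FBLN1 (789 and 827), ACTA2 and TAGLN. The leukocyte markers above it were CD14, CD74, CORO1A and LCP1. The fibroblast and leukocyte sums did not overlap between the groups, with ACTA2 at 787 in the 50 nM cultures, against 627 in DMSO, and their part in the results above was not tested. Above the level minimum were also 6 of 15 markers of differentiated airway cells and 3 of 16 of endothelial cells. They included AGR2 (1682 at 50 nM and 1655 in DMSO), SFTPC (508 and 542) and ENG (249 and 226). In such bulk samples, fewer cells of a type and less RNA per cell cannot be told apart. The 3 arrays of 50 nM correlated at 0.997 to 0.998 over tested probe sets and those of DMSO at 0.991 to 0.997.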

How the data were processed

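RNA was measured on an Affymetrix 3′ expression array of 54675 probe sets after NuGEN Ovation amplification of 40 ng of RNA, per the labels' protocols. Each deposited value is the linear intensity of a probe set after a normalization by the authors whose method was not given in the sources used here. GCOS is the tool in the submitters' processing notes, with its version not given. Detection calls were not used here.

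Groups came from sample titles. The 62 control probe sets were left out. Values were log2(intensity + 16), where the offset makes changes of dim probe sets smaller, and the 27307 probe sets with a mean log2 value of at least 5.74 (an intensity of 37.4) were tested. These measure 12174 genes through probe sets with 1 symbol in the array's annotation table. A limma fit (limma 3.58.1, R 4.3.3) of 10 group means over all 29 arrays gave 19 residual degrees of freedom, with empirical Bayes moderation, a mean-variance trend, two-sided tests and Benjamini-Hochberg adjustment over all tested probe sets of a comparison. All comparisons with DMSO share its 3 arrays. The number of arrays limits the precision.

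The comparison, its members and the gene lists were chosen with earlier results of these data known. No set test was run. Genes named are the called probe sets of largest change with 1 symbol, up to 25 genes in each direction, called list members, and a fixed group holding CDKN1A, MDM2, GDF15, SESN1, ACER2, TP53I3, FAS, CYP1A1, CYP1B1, NQO1 and HMOX1. Other genes named, such as TMEFF2 and list members that did not pass, were chosen after their values were seen. Gene lengths, promoters and microRNAs are from the RefSeq tables of GRCh38.p14, and gene identifiers matched for 41037 of 41091 probe sets with 1 symbol. The alternatives were median centring, quantile normalization, an offset of 1, other level filters, no trend, a replicate block, only the compared groups, a 3′ to 5′ covariate, a 1.5-fold minimum, other reference arrays, the mean of a gene's probe sets, and each array left out. The code was tested on simulated data. Figures were drawn with matplotlib 3.10.9.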

Additional observations from a re-analysis of the deposited data

How the results depend on the processing

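The count of probe sets that passed at 50 nM against DMSO (72) was 50 to 93 under median centring, quantile normalization, an offset of 1, the replicate block, no level filter, a fit of only these groups, the 3′ to 5′ covariate and the low-dose reference. It was 42 in the upper 25% of mean level, where 59.5% were higher against 45.8% before, 43 without the mean-variance trend and 24 with a 1.5-fold minimum. It ranged from 8 to 68 when 1 array was left out, which also leaves fewer arrays to the test.

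For 50 nM against 10 nM (7), the counts were 3 with offset 1, 2 without level filter, 3 in the upper 25%, 2 without trend, 4 with the 3′ to 5′ covariate, 4 with a 1.5-fold minimum and 1 to 3 with an array left out. For 50 nM against 100 nM (26), they were 42 with quantile normalization, 13 without filter, 15 in the upper 25%, 17 without trend, 11 with only the 2 groups, 13 with a 1.5-fold minimum and 7 to 24 with an array left out. For 100 nM against 10 nM (387), they were 257 without filter, 212 with only the 2 groups, 88 with a 1.5-fold minimum and 199 to 298 with an array left out.

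Of the p53 targets (14), 9 rose without filter, 8 without trend, 2 with a 1.5-fold minimum, 8 against the low doses and 3 to 13 with an array left out, and their median was 0.18 to 0.22. Of the very long and fragile-site genes (3), 1 fell in the upper 25%, 5 with only the 2 groups, 5 against the low doses, 6 by the mean of a gene's probe sets and 1 to 3 with an array left out, with a median of -0.24 to -0.19. Of the genes over 300 kb (5), 3 fell without filter, 2 in the upper 25%, 10 with only the 2 groups, 3 with a 1.5-fold minimum, 11 against the low doses, 11 by the mean of a gene's probe sets and 1 to 4 with an array left out, with a median of -0.14 to -0.09.

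Same-numbered arrays of 50 nM and DMSO correlated at 0.05, 0.06 and -0.03 in their deviations from group means, and unlike-numbered ones at -0.09 to 0.07. Same-numbered arrays of 100 nM and 10 nM correlated at -0.02, 0.06 and 0.38, and unlike-numbered ones at -0.38 to 0.32. With 3 arrays in a group, such values cannot show whether the numbers pair the cultures. With the replicate number as a block, 57, 4, 20 and 373 probe sets passed in these 4 comparisons, in the order given above, with 11 p53 targets and 3 very long genes.

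Of 895 values of named genes under the alternatives, 535 stayed on their side of the threshold in the same direction and 350 kept the direction but no longer passed. The 10 that turned were JUN 0.22, TNFAIP3 0.21, KLF6 0.11, HERPUD1 0.0761, NQO1 0.0755 and CYP1B1 -0.21 against the low doses, 1 value of CYP1B1 and of HMOX1 and 2 of NQO1 with an array left out, whose ranges were -0.0688 to 0.1413 for CYP1B1, -0.0023 to 0.1256 for HMOX1 and -0.0556 to 0.0024 for NQO1. The cause was not tested. The long-gene alternatives and the reading of the 72 probe sets in the 100 and 10 nM arrays alone were added after seeing the data.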

Other observations

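Probe sets just inside the threshold were those of DUSP14 at 0.26 (adjusted p = 0.048), EPPK1 at 0.38 (adjusted p = 0.049) and the one annotated to HSPA8 with snoRNA genes at -0.37 (adjusted p = 0.049). Just outside stood CLNS1A, which takes part in the assembly of splicing particles, at -0.57 (adjusted p = 0.052), AKAP10, an anchor of protein kinase A, at -0.86 (adjusted p = 0.053) and ITCH, a ubiquitin ligase, at -0.24 (adjusted p = 0.054). AKAP10 read 89.7, 63.6 and 92.3 at 50 nM and 208, 163 and 121 in DMSO, and averaged 81.7 at 10 nM and 110 at 100 nM.

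Some genes differed between 50 nM and 100 nM without having passed against DMSO. SULF2, an extracellular sulfatase, was lower at 50 nM than at 100 nM at -0.51 ± 0.09 (adjusted p = 0.023), NECTIN4, an adhesion molecule, at -0.62 ± 0.12 (adjusted p = 0.046), and GAL3ST4, a sulfotransferase, at -0.57 ± 0.11 (adjusted p = 0.028). IFIT3, an interferon-induced protein, was lower at -0.62 ± 0.13 (adjusted p = 0.048) with 151, 148 and 167 at 50 nM and 239, 285 and 223 at 100 nM. ATP9A and MAP1B were higher at 50 nM by 0.21 each.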
